A study of Mus musculus with 2 samples.

Results

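The autophagy and mitophagy genes described here are 35 listed genes, taken by symbol, of the 55536 genes measured in the gastrocnemius, a fast calf muscle. The list holds the initiation kinase, the lipid kinase, the lipid transfer and membrane proteins, the conjugation machinery, the ATG8 proteins and the ATG4 proteases. It also holds cargo receptors, mitophagy genes, a pair of transcription factors and the main lysosomal membrane proteins. Total RNA was measured in 2 libraries, replicates 2 and 1 of 1 group. The animals were female B6CASTF1/J mice, first-generation hybrids of a C57BL/6J and a CAST/EiJ parent strain, 14 days old, with no treatment or mutation named. The series holds no other group, so replicate 2 is set against replicate 1 only to show how far the same tissue varied. They are labelled as biological replicates. The description of either library speaks of 3 females, but the tissue text names 1 female for replicate 2. It was therefore not clear whether a library came from a pool, and the spread between them may be technical.

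Autophagy wraps part of the cytoplasm in a double membrane, the autophagosome, and delivers it to the lysosome for breakdown. A kinase and a lipid kinase start the membrane, lipid transfer proteins expand it, and conjugation enzymes attach small ATG8 proteins to it, which bind receptors that carry cargo. In muscle the pathway clears damaged mitochondria and supplies amino acids in fasting, and the mRNA levels given here do not measure that flow.

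Gene counts summed to 42105856 in replicate 2 and 35592003 in replicate 1. Levels are given in TPM, abundance per length, from the deposited gene tables; a second deposited table made directly from the reads is called the direct quantification. Of 7 skeletal muscle fibre markers, 7 were above 1 TPM in both libraries and 0 passed 1.5-fold between them. Schwann cell markers were at least 1.5-fold higher in replicate 2 for 6 of 8 genes (summed 689.7 TPM in replicate 2 and 263.7 TPM in replicate 1). Slow fibre markers were so for 5 of 8 (2478 TPM in replicate 2 and 1471 TPM in replicate 1). Red cell markers were at least 1.5-fold lower in replicate 2 for 6 of 6 tested genes (1495 TPM in replicate 2 and 2949 TPM in replicate 1). By the same scaled counts, described below, 7.85% of all 15734 tested genes were that much higher and 5.65% that much lower. Fewer cells of a type and less RNA per cell cannot be told apart in such bulk tissue.

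All 35 members reached at least 1 TPM in both libraries. Their summed level was 1076 TPM in replicate 2 and 1116 TPM in replicate 1, or 1096 ± 28.2 TPM (SD, n = 2). This was 0.215% of the TPM summed over nuclear protein-coding genes in replicate 2 and 0.235% in replicate 1. The median member stood at 14.9 TPM, against 8.38 TPM for the 11004 nuclear protein-coding genes of at least 1 TPM in both libraries, and 25 of the 35 lay above that median. Levels ran from 2.57 TPM for Atg4c to 132 TPM for Pink1. The ATG8 family held 24.0% of the summed level, the mitophagy genes 22.3%, the cargo receptors 14.5% and the lysosomal pair 13.2%, while the 6 conjugation genes held 3.3%.

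**Figure D1:**
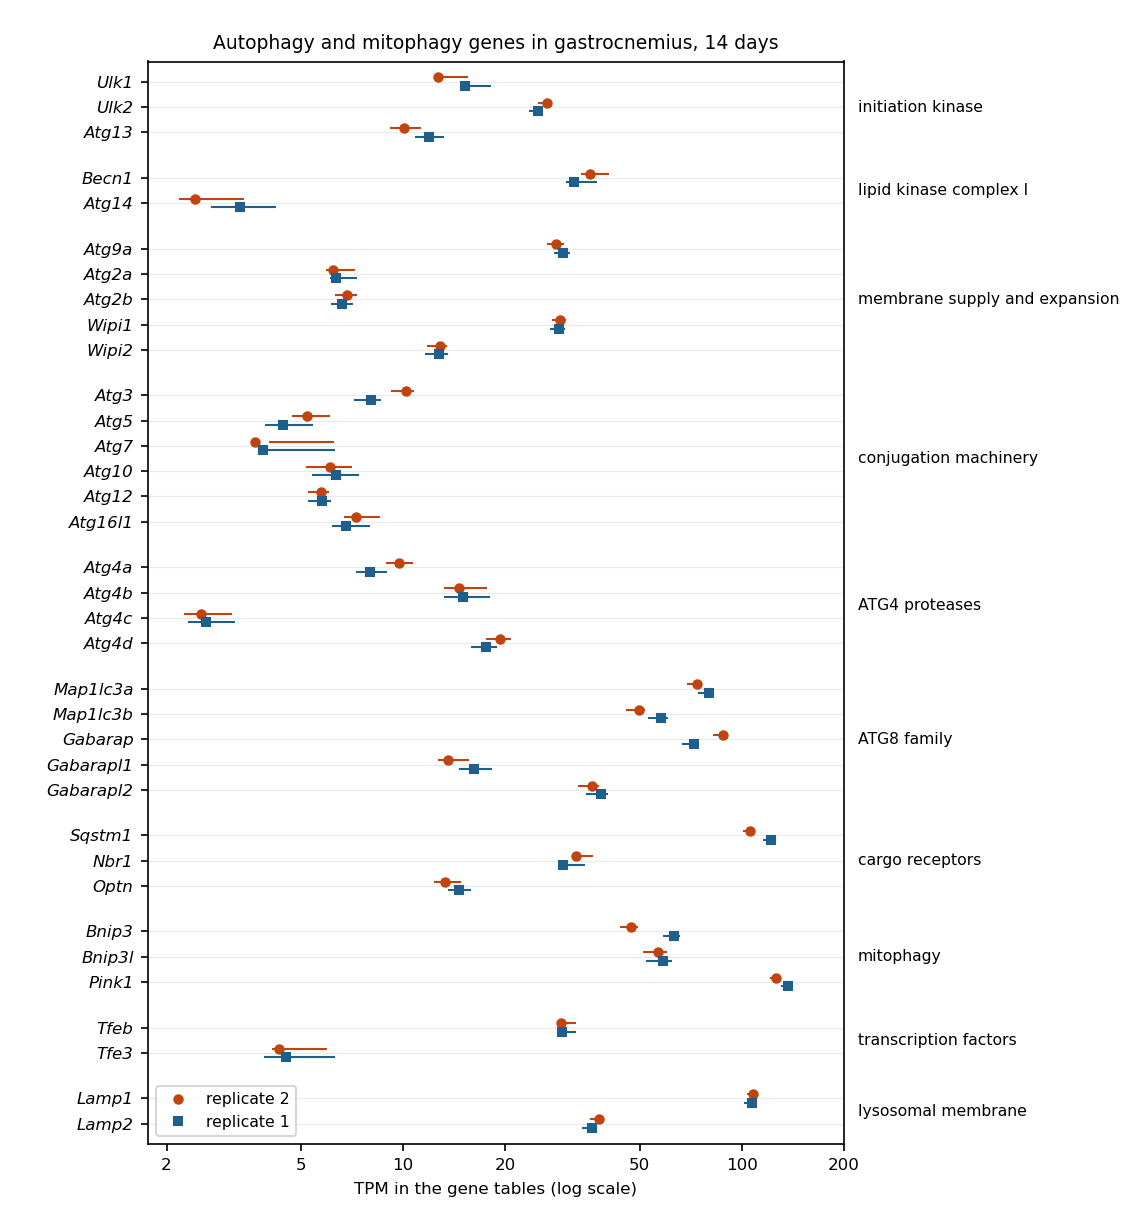
TPM of each of the 35 genes in the gene tables (log scale), replicate 2 as circles and replicate 1 as squares, grouped by role; lines are the deposited intervals around the posterior mean TPM, which need not hold the TPM point, as for Atg7. Pink1, Sqstm1 and Lamp1 are above 100 TPM in both libraries, and Atg14, Atg4c and Atg7 are lowest.

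Pink1 was the highest of the members. This kinase accumulates on depolarised mitochondria and marks them for removal. Its mRNA stood at 126 TPM in replicate 2 and 137 TPM in replicate 1, and 96.2% of nuclear protein-coding genes of at least 1 TPM lay below it. It lies on the minus strand of mm10 at chr4:138313409-138326307. Bnip3l, a receptor in the outer mitochondrial membrane that is also known for clearing mitochondria from maturing red cells, had 56.5 TPM in replicate 2 and 58.4 TPM in replicate 1. Bnip3, its hypoxia-responsive paralog, had 47.0 TPM in replicate 2 and 62.9 TPM in replicate 1. By whole-gene TPM the order of these paralogs was therefore not the same in the 2 libraries. The Bnip3 over Bnip3l log2 ratio was -0.27 in replicate 2, with separated intervals, and 0.11 in replicate 1, where the intervals overlapped. Most of the Bnip3l level lay in transcripts not of coding type. Coding transcripts summed to 46.84 TPM for Bnip3 and 9.63 TPM for Bnip3l in replicate 2. In replicate 1 they summed to 61.75 and 10.01 TPM, so Bnip3 was the higher in both libraries. Of the other outer-membrane receptors, Fkbp8 stood at 56.3 TPM in replicate 2 and 50.9 TPM in replicate 1, and Fundc1 at 12.6 TPM in replicate 2 and 11.4 TPM in replicate 1.

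Among the cargo receptors Sqstm1 (p62), which binds ubiquitin and ATG8 proteins, led with 106 TPM in replicate 2 and 122 TPM in replicate 1 (minus strand, chr11:50199366-50210827). It held 71.6% ± 2.53 of the summed level of the 3 receptors (SD, n = 2). Nbr1, a related receptor with a role at the sarcomeric protein titin, had 32.3 TPM in replicate 2 and 29.7 TPM in replicate 1, and Optn, optineurin, had 13.2 TPM in replicate 2 and 14.6 TPM in replicate 1. Sqstm1 was 3.27 times Nbr1 in replicate 2 and 4.12 times in replicate 1, with separated intervals in both. Optn depended on the quantification: the direct one put it at 32.5 TPM in each library, 2.33 times its level in the gene tables.

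In the ATG8 family, Gabarap and Map1lc3a were close and highest in the gene tables. Gabarap had 87.8 TPM in replicate 2 and 72.1 TPM in replicate 1, and Map1lc3a (LC3A) had 73.9 TPM in replicate 2 and 80.0 TPM in replicate 1, so their order changed between the libraries. Map1lc3b (LC3B), the protein most used to mark autophagosomes, followed with 49.9 TPM in replicate 2 and 57.8 TPM in replicate 1. Gabarapl2 (GATE-16) had 36.0 TPM in replicate 2 and 38.3 TPM in replicate 1, and Gabarapl1 had 13.6 TPM in replicate 2 and 16.2 TPM in replicate 1. Gabarapl1 was the lowest of the 5 in both libraries and both quantifications. By whole-gene TPM the order of the LC3 genes was not stable to the quantification. In the gene tables the Map1lc3a over Map1lc3b log2 ratio was 0.57 in replicate 2 and 0.47 in replicate 1, with separated intervals. There Map1lc3a-203, a processed transcript, held 49.7% of Map1lc3a in replicate 2 and 58.1% in replicate 1. Coding transcripts in the gene tables summed to 49.57 TPM for Map1lc3b and 29.85 TPM for Map1lc3a in replicate 2. In replicate 1 they summed to 57.39 and 29.51 TPM, so by these Map1lc3b was the higher. In the direct quantification Map1lc3b had 115 TPM in replicate 2 and 131 TPM in replicate 1 and Map1lc3a 103 TPM in replicate 2 and 113 TPM in replicate 1, a log2 ratio of -0.15 in replicate 2 and -0.21 in replicate 1.

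**Figure D2:**
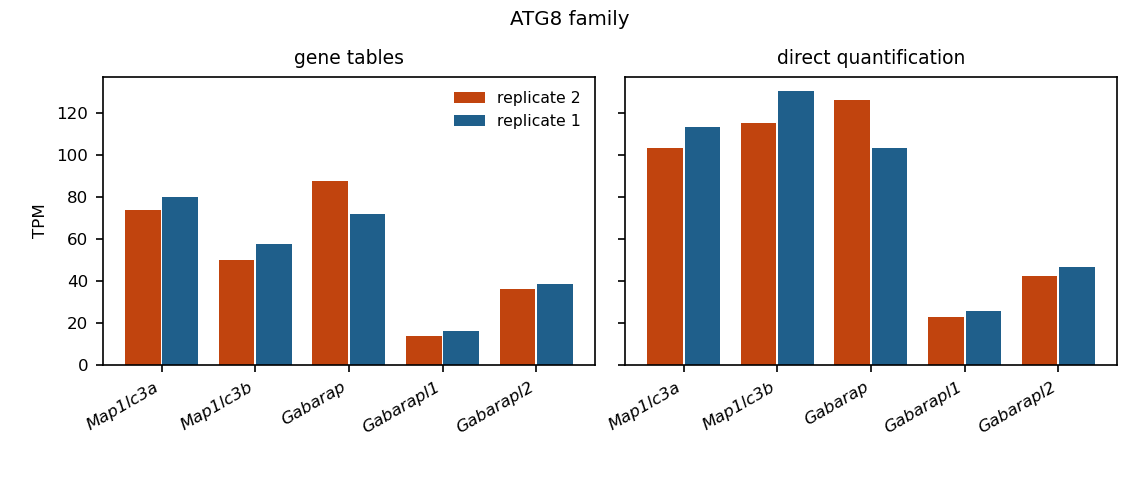
TPM of the 5 ATG8 family genes in replicate 2 (left bar) and replicate 1 (right bar) in the gene tables and in the direct quantification, on 1 axis from 0. Map1lc3b is below Map1lc3a in the gene tables and above it in the direct quantification.

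The ATG8 proteins are made with a few residues after a glycine, which ATG4 proteases remove so that the glycine can be joined to a membrane lipid. The last 60 coding bases of each gene's first-numbered coding transcript (GENCODE M21, mm10, stop codon included) are shown because this end is what the ATG4 enzymes act on; the codon of the last glycine is in capitals.
Map1lc3a-201 (chr2:155277578-155277637, plus strand): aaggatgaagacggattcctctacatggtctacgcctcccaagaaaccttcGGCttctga
Map1lc3b-201 (chr8:121596711-121596770, plus strand): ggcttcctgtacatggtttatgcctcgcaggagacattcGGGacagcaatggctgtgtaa
Gabarap-201 (chr11:69994465-69994524, plus strand): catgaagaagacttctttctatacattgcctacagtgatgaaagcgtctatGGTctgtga
Gabarapl1-201 (chr6:129541108-129541167, plus strand): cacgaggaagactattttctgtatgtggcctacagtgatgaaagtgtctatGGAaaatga
Gabarapl2-201 (chr8:111952346-111952405, plus strand): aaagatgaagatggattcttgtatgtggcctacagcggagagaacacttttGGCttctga
The glycine is codon 120 in both LC3 genes and codon 116 in the 3 GABARAP-type genes. It is followed by 5 codons before the stop in Map1lc3b and by 1 in the other 4 genes.

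The 4 ATG4 protease genes, which perform that cut and later free ATG8 proteins from membranes, were lower as a group, with a summed 46.1 TPM in replicate 2 and 43.2 TPM in replicate 1, against 261 TPM in replicate 2 and 264.5 TPM in replicate 1 for the ATG8 genes. Atg4d had 19.3 TPM in replicate 2 and 17.6 TPM in replicate 1, and Atg4b, known as the most active of these enzymes on LC3, had 14.6 TPM in replicate 2 and 15.1 TPM in replicate 1. Their intervals overlapped in both libraries. Atg4a stood at 9.74 TPM in replicate 2 and 7.98 TPM in replicate 1. It was the single member whose deposited posterior standard deviation was above 1% of its count. Atg4c had 2.52 TPM in replicate 2 and 2.61 TPM in replicate 1. By whole-gene TPM it was below Atg4d by a log2 ratio of -2.94 in replicate 2 and -2.75 in replicate 1, with separated intervals. Coding transcripts alone gave the reverse order. They summed to 2.52 and 2.61 TPM for Atg4c in replicates 2 and 1, and to 0.47 TPM for Atg4d in each.

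The conjugation machinery was low and even. Atg3, the E2-like enzyme that attaches ATG8 proteins to lipid, was highest at 10.2 TPM in replicate 2 and 8.04 TPM in replicate 1. Atg7, the E1-like enzyme that serves both conjugation systems, was lowest in the gene tables at 3.66 TPM in replicate 2 and 3.86 TPM in replicate 1. That rank depended on the estimate: its posterior mean of 5.07 TPM in replicate 1 was above the 4.64 TPM of Atg5, and its direct quantification of 7.30 TPM in replicate 2 was above the 6.75 TPM of Atg5 and the 7.01 TPM of Atg12. Between them lay Atg16l1, the membrane-targeting partner, at 7.27 TPM in replicate 2 and 6.80 TPM in replicate 1, and Atg10, the E2-like enzyme of the ATG12 system, at 6.08 TPM in replicate 2 and 6.32 TPM in replicate 1. The conjugated pair Atg12 and Atg5 stood at 5.70 and 5.19 TPM in replicate 2 and at 5.76 and 4.42 TPM in replicate 1, and their intervals overlapped in both libraries. The whole group spanned less than a 3-fold range of level in each library, narrower than the ATG8 genes whose product it attaches.

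Of the initiation kinases, Ulk2 was the more abundant, at 26.6 TPM in replicate 2 and 25.0 TPM in replicate 1, against 12.7 and 15.2 TPM for Ulk1 in the same libraries. Ulk2 was 2.11 times Ulk1 in replicate 2 and 1.64 times in replicate 1, with separated intervals in both. Both encode the serine/threonine kinase that AMPK and mTORC1 regulate in opposite directions. Atg13, its adaptor, had 10.1 TPM in replicate 2 and 11.9 TPM in replicate 1, and the scaffold Rb1cc1 (FIP200) had 32.4 TPM in replicate 2 and 36.8 TPM in replicate 1. Of the lipid kinase subunits, Becn1 (Beclin 1) had 35.5 TPM in replicate 2 and 31.9 TPM in replicate 1, while Atg14, the subunit that directs the complex to autophagy, had 2.43 TPM in replicate 2 and 3.29 TPM in replicate 1. Most of the Becn1 level lay in transcripts not of coding type: its coding transcripts summed to 6.77 TPM in replicate 2 and 3.05 TPM in replicate 1, against 2.36 and 3.29 TPM for coding Atg14 transcripts in the same libraries. The catalytic subunit Pik3c3 stood at 5.45 TPM in replicate 2 and 5.75 TPM in replicate 1. Sh3glb1 (endophilin B1), a Beclin partner, was the highest of the other subunits at 131 TPM in replicate 2 and 128 TPM in replicate 1.

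In membrane supply, Atg9a, the lipid scramblase carried by vesicles to the growing membrane, had 28.4 TPM in replicate 2 and 29.6 TPM in replicate 1. Its relative Atg9b had 0.07 TPM in replicate 2 and 0.08 TPM in replicate 1, from 6 and 5 counts. The lipid transfer genes Atg2a and Atg2b were alike in level, at 6.21 and 6.82 TPM in replicate 2 and at 6.34 and 6.61 TPM in replicate 1, with overlapping intervals. Wipi1 was 2.27 times Wipi2 in each library, at 29.1 TPM in replicate 2 and 28.9 TPM in replicate 1, against 12.8 TPM for Wipi2 in both. Both encode proteins that bind the phosphoinositide made by the lipid kinase.

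Of the transcription factors of lysosomal and autophagy genes, Tfeb had 29.2 TPM in replicate 2 and 29.4 TPM in replicate 1, and Tfe3 had 4.30 TPM in replicate 2 and 4.51 TPM in replicate 1. Tfeb was 6.80 times Tfe3 in replicate 2 and 6.51 times in replicate 1, with separated intervals. Lamp1, an abundant glycoprotein of the lysosomal membrane, had 108 TPM in replicate 2 and 107 TPM in replicate 1, against 37.8 and 36.0 TPM for Lamp2, whose loss causes a vacuolar disease of heart and skeletal muscle in humans. Of the 18 pairs of related or partner genes compared in this way, 13 were separated in both libraries. Under the direct quantification 17 kept their order in each library. These comparisons used whole-gene TPM, transcripts not of coding type included.

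Both factors bind the E-box CACGTG, best within the CLEAR motif of lysosomal genes. RefSeq promoters (GRCm38.p6, 250 bases before to 50 after a gene's start) were at hand for 30 of the 35 members, 36 promoters in all. The letters CACGTG, the same on both strands, stood in 7.15% of all 32851 promoters and in 6 of the 36 member promoters. These were promoters of Atg14, Atg3, Atg5, Atg7, Bnip3 and Lamp1. The longer TCACGTG, which contains CACGTG, stood on either strand in 3.77% of all promoters and in 4 of the 36 member promoters. Those 4 belong to Atg14, Atg3, Atg7 and Lamp1. The stretches around the matches before the start are shown, matches in capitals, for Lamp1, which carries 4 of them, and Atg3, which carries 3 counting both strands. In Atg3 the run TCACGTGA reads the same on both strands, so this single site was counted once on each.
Lamp1 (chr8:13159079-13159160, plus strand): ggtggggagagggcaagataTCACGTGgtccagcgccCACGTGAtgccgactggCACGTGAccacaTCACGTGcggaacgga
Atg3 (chr16:45158714-45158784, plus strand): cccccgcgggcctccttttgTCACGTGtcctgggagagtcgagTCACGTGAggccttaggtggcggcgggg
The matches begin 62 to 16 bases before the start in Lamp1 and 95 to 71 in Atg3. The single Atg14 match begins 1 base before the start and runs across it. The RefSeq start need not be that of the M21 gene: it lies 27999 bases inside the M21 span in Atg7 and 2215 bases inside in Atg14, against 44 bases in Atg3 and 0 in Lamp1. A match is only a run of letters here, and any relation between matches and level was not tested. Lamp1 was among the highest members and Atg3 stood below the median member.

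Lamp2 is spliced to 1 of 3 alternative last exons that give the protein different ends. Lamp2-201 encodes the LAMP2A end, the receptor of chaperone-mediated autophagy, Lamp2-202 the LAMP2B end and Lamp2-203 the LAMP2C end. The coding ends are shown because they tell the forms apart (GENCODE M21, mm10, minus strand); 15 shared bases are in lower case and the last coding exon is in capitals, at the position given.
Lamp2-202 (chrX:38421712-38421851): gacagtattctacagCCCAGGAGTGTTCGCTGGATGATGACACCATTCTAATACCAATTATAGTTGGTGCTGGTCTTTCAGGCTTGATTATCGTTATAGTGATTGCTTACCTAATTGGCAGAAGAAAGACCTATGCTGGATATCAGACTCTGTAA
Lamp2-201 (chrX:38405432-38405571): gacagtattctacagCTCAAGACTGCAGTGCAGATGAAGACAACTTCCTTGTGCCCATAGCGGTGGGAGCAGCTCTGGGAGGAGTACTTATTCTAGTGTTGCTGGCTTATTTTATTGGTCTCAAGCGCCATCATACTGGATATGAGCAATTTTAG
Lamp2-203 (chrX:38402139-38402281): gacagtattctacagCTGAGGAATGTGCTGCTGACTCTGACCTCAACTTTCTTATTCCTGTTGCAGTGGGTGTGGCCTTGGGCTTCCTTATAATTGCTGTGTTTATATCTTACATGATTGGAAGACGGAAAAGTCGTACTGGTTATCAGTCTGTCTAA
The LAMP2B transcript held 69.0% of Lamp2 in replicate 2 and 64.9% in replicate 1 by the deposited isoform percent, or 26.1 and 23.4 TPM. The LAMP2A transcript held 25.5% in replicate 2 and 29.2% in replicate 1, or 9.65 and 10.5 TPM, and the LAMP2C transcript 2.51% in replicate 2 and 2.27% in replicate 1. The deposited intervals of the 3 forms did not overlap in either library. The direct quantification gave nearly the same shares, 67.2% in replicate 2 and 64.9% in replicate 1 for LAMP2B and 23.8% in replicate 2 and 25.7% in replicate 1 for LAMP2A.

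The TPM of a gene sums its transcripts, and for some members much of it lay in models annotated as non-coding, as retained introns or as targets of nonsense-mediated decay. The median member had 94.3% of its TPM in transcripts of coding type, close to the 94.1% of 11324 nuclear protein-coding genes of at least 1 TPM. Under 50% was found for 5 of 35 members (14.3%), against 6.9% of those genes. These were Atg4d at 2.4% in replicate 2 and 2.7% in replicate 1, Becn1 at 19.1% in replicate 2 and 9.6% in replicate 1, Bnip3l at 17.0% in replicate 2 and 17.2% in replicate 1, Map1lc3a at 40.4% in replicate 2 and 36.9% in replicate 1 and Gabarapl2 at 44.1% in replicate 2 and 37.6% in replicate 1. In each of them the leading transcript was of such a type in both libraries: a retained intron in Atg4d and Gabarapl2, a decay target in Becn1, and a processed transcript in Bnip3l and Map1lc3a.

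Shares of counts differed from shares of TPM, in either direction. Bnip3l had 57.4% of its counts in coding transcripts in replicate 2 and 57.3% in replicate 1, and Gabarapl2 65.7% in replicate 2 and 59.4% in replicate 1. Map1lc3a had 48.7% of its counts in them in replicate 2 and 44.9% in replicate 1, while Becn1 was lower by counts than by TPM, at 16.2% in replicate 2 and 7.2% in replicate 1. Atg4d stayed at 9.3% of counts in replicate 2 and 9.2% in replicate 1. Its coding transcripts summed to 0.47 TPM in each library, below the 9.23 and 7.89 TPM of coding Atg4a transcripts in replicates 2 and 1. The direct quantification also left Atg4d at 1.9% in replicate 2 and 2.0% in replicate 1, but put Map1lc3a at 92.7% in replicate 2 and 89.9% in replicate 1, and Optn at 35.1% in replicate 2 and 43.5% in replicate 1. The Atg4d span overlaps Kri1 on the opposite strand over 4316 bases, and Kri1 had 4.98 TPM; whether counting used strand was not given in the sources used here, so reads of such partners cannot be told apart. Likewise Atg4b overlaps Thap4 over 3365 bases and Lamp1 overlaps Grtp1 over 3317 bases, with 20.1 and 5.50 TPM in the partners. On its own strand, Map1lc3b overlaps the protein-coding gene Gm20388, with 1.47 TPM, over 8400 bases, the whole Map1lc3b span. Also on its own strand, Atg16l1 overlaps the small RNA genes Gm25395 and Scarna6, with 107.5 and 37.4 TPM, above the 6.80 to 7.27 TPM of Atg16l1 itself.

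The same transcript led in both libraries for 32 of 35 members (91.4%), near the 88.9% of 10353 nuclear protein-coding genes with 2 or more transcripts. Pink1-201 held 83.0% of its gene in replicate 2 and 81.2% in replicate 1, and Lamp1-201 held 99.8% in replicate 2 and 99.7% in replicate 1. The leader differed in Atg10, Tfeb and Tfe3. Atg10-203, a decay target, held 53.2% in replicate 2 and 45.1% in replicate 1, and the coding Atg10-201 held 46.8% in replicate 2 and 54.9% in replicate 1. In the direct quantification 32 of 35 members also kept 1 leader in both libraries, and it was the leader of the gene tables for 22 of 35.

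**Figure D3:**
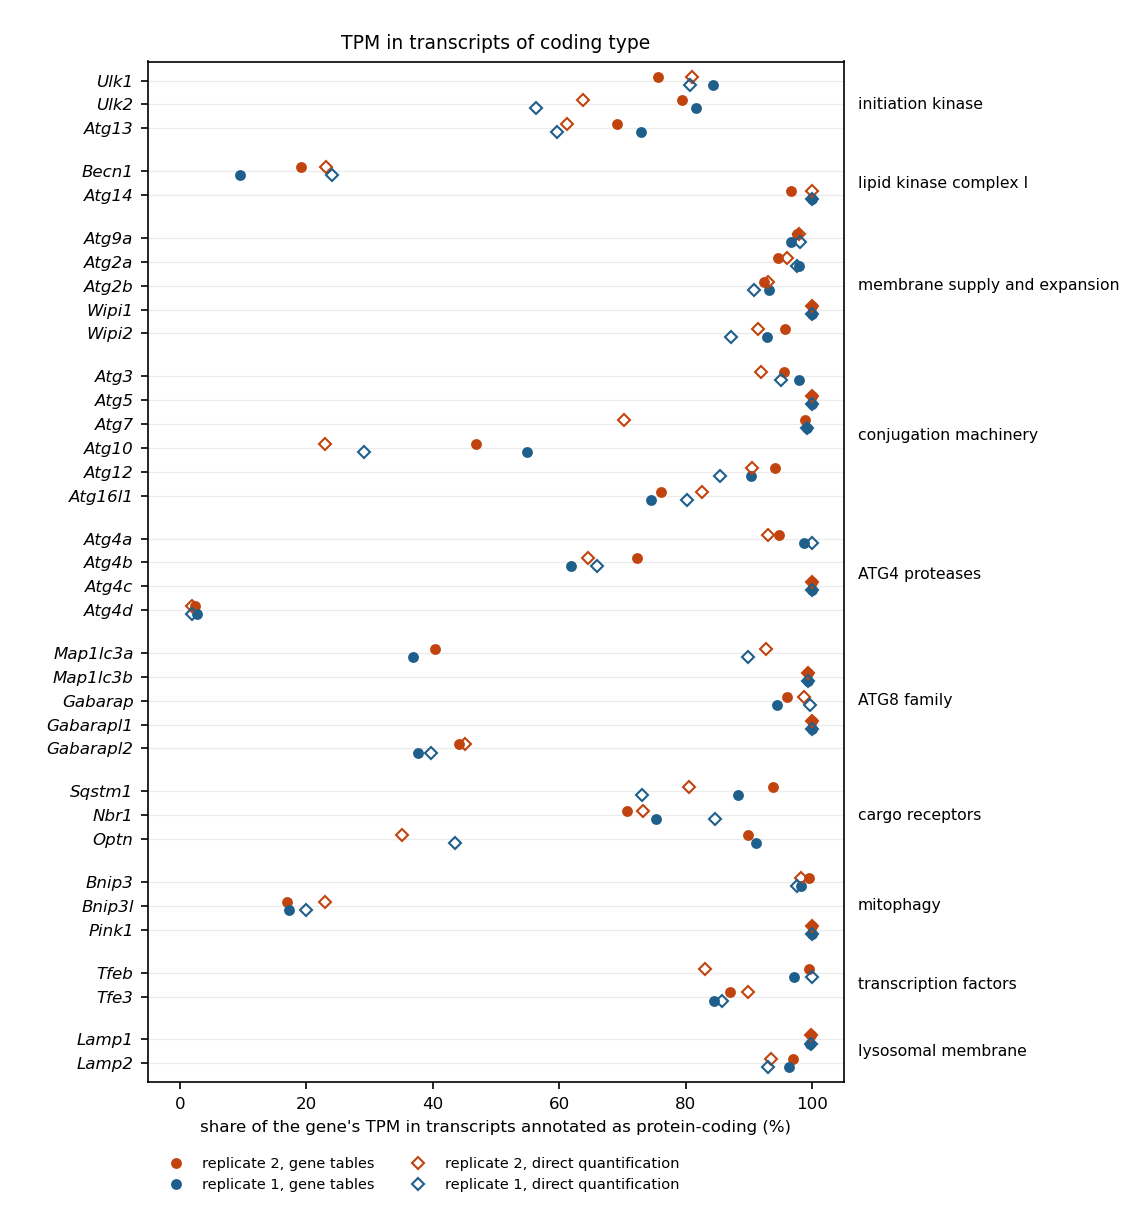
Share of each gene's TPM in transcripts annotated as protein-coding (%), replicate 2 above replicate 1, filled circles for the gene tables and open diamonds for the direct quantification. Atg4d is below 3% in all 4 values, and Map1lc3a and Optn move most between the quantifications.

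Between the libraries, ratios were taken from counts scaled with TMM, and called at a difference of 1.5-fold or more; with 1 library on each side no p can be given, and the 95% Clopper-Pearson intervals cover counting error only. Of the 35 members, 0 were higher and 0 lower in replicate 2, while 7.85% of 15734 tested genes were higher and 5.65% lower. Of genes with a summed count of at least 500, as 33 members have, 2.35% were higher and 3.02% lower. The counting interval lay within 1.5-fold for 31 members and reached it for Ulk1, Atg13, Atg14 and Bnip3. The median absolute log2 ratio was 0.16 for the members, against 0.19 for all tested genes and 0.14 for those of at least 500 counts, so the members varied about as much as other genes of their depth.

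The members' ratios were not centred on the other genes. Their median log2 ratio was -0.16, against 0.01 for all tested genes, and 29 of 35 members lay below that all-gene median. The interval was wholly below 0 for 23 members (65.7%), held 0 for 12 and was wholly above 0 for 0, while it was below 0 for 19.2% and above 0 for 19.1% of all tested genes, and for 27.7% and 23.8% of those of at least 500 counts. Scaling set these counts: by ERCC spike-in counts the interval was below 0 for 8 members and above 0 for 12, and for 6.64% and 47.7% of all tested genes. Scaling by total gene counts placed the median of all genes at 0.14, scaling by ERCC spike-in counts at 0.23 and the TPM ratio at 0.16, and the members' median then became -0.03, 0.06 and -0.05. Count scalings move all genes by 1 constant, so the members' median minus that of all genes stays at -0.17 with 29 of 35 members below under TMM, DESeq2, total and spike-in scaling by construction. It was -0.14 over genes of at least 500 counts (27 of 33 members below), -0.15 in the direct quantification (28 of 35) and -0.21 as a TPM ratio (31 of 35). Beside this shift, skeletal muscle fibre markers had a median log2 ratio of -0.12 with 7 of 7 below the all-gene median, and endothelial markers -0.20 with 6 of 8 below. Red cell markers had a median of -1.17 with 6 of 6 below, and Schwann cell markers 0.90 with 0 of 8 below. Slow fibre markers also had a positive median, 0.59 (1 of 8 below), as did tendon, 0.47 (0 of 8), and fibro-adipogenic markers, 0.29 (2 of 8). The median was 0.05 for macrophage (2 of 8), 0.02 for mural (4 of 8), -0.01 for adipocyte (4 of 8) and -0.01 for lymphoid markers (2 of 3). The part of these cell types in the members' ratios was not tested.

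The most negative ratio was that of Ulk1, with 1615 counts in replicate 2 and 1861 in replicate 1, a log2 ratio of -0.57 (interval -0.67 to -0.48), which 5.8% of tested genes lay below. Bnip3 followed with 2354 counts in replicate 2 and 2615 in replicate 1 (-0.52, interval -0.60 to -0.44), Atg14 with 252 counts in replicate 2 and 272 in replicate 1 (-0.48, interval -0.73 to -0.23) and Atg13 with 854 counts in replicate 2 and 906 in replicate 1 (-0.46, interval -0.59 to -0.32). These 4 were negative in all 9 settings tried, Ulk1 between -0.58 and -0.26 and Bnip3 between -0.53 and -0.30. Settings that changed only the count minimum could not move a ratio. At 1.3-fold, a limit chosen after the values were seen, 6 members were lower and 0 higher, namely those 4 with Gabarapl1 (-0.39) and Map1lc3b (-0.38), while 10.6% of all tested genes were lower and 14.6% higher. Optn came next at -0.34. Some paralogs of these genes had ratios whose intervals did not overlap theirs: Ulk2 had -0.10, Bnip3l -0.22 and Gabarap 0.08. In other pairs the intervals overlapped, as for Atg2a (-0.24) and Atg2b (-0.14), Wipi1 (-0.11) and Wipi2 (-0.16), Map1lc3a (-0.26) and Map1lc3b (-0.38), and Lamp1 (-0.14) and Lamp2 (-0.06). Pink1, with 8712 counts in replicate 2 and 8125 in replicate 1, had -0.27 (interval -0.31 to -0.23) and Sqstm1, with 6441 counts in replicate 2 and 6186 in replicate 1, had -0.31 (interval -0.36 to -0.26).

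By role, the median log2 ratio was -0.46 for the initiation kinase genes, -0.31 for the cargo receptors, -0.28 for the lipid kinase pair, -0.27 for the mitophagy genes and -0.26 for the ATG8 family. It was -0.16 for membrane supply, -0.10 for the lysosomal pair, -0.05 for the ATG4 proteases, -0.04 for the conjugation machinery and -0.03 for the transcription factors. The conjugation and ATG4 genes held 4 of the 6 members with a ratio above 0: Atg3 (0.18), Atg4a (0.08), Atg5 (0.07) and Atg4b (0.06). The remaining pair was Tfe3 (0.09) and Gabarap (0.08), and the interval held 0 for each of the 6.

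**Figure D4:**
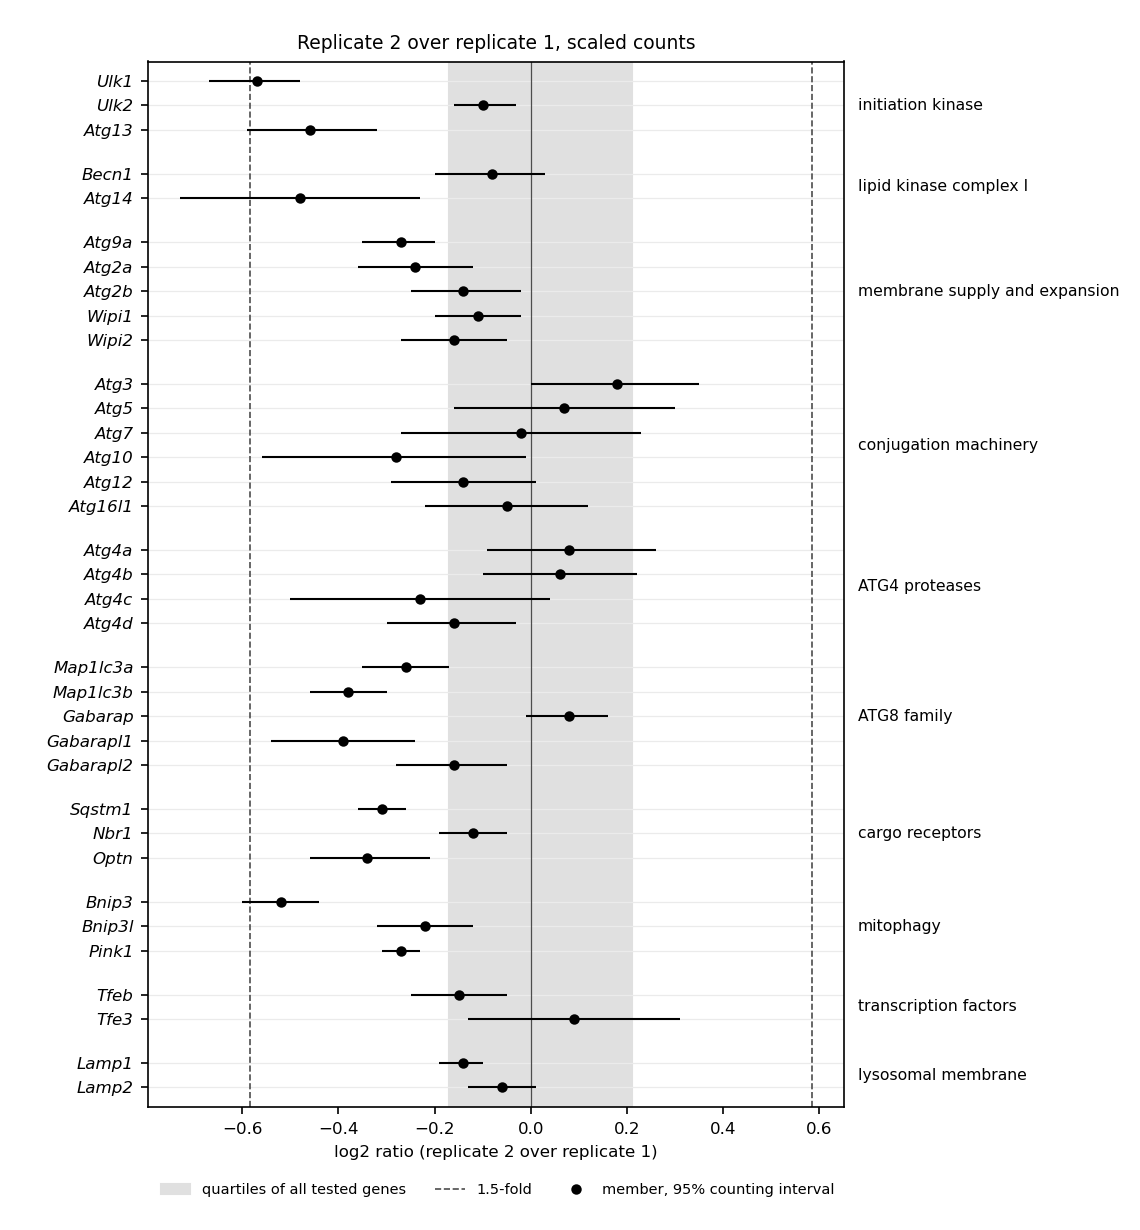
Log2 ratio of TMM-scaled counts, replicate 2 over replicate 1, for each member with its 95% counting interval; the grey band runs from the lower to the upper quartile of all tested genes and the dashed lines are 1.5-fold. All 35 points lie inside the dashed lines, and most lie left of 0.

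Of 102 other genes of the pathway, in 7 lists, 101 had a summed count of at least 20. Beside 7.85% of all tested genes higher and 5.65% lower in replicate 2, 0 of these were higher and 2 (2.0%) lower. Both were regulators of mTORC1, the kinase complex that restrains autophagy. Ddit4 (REDD1), a stress- and glucocorticoid-induced inhibitor of mTORC1, had 7.49 TPM in replicate 2 and 38.3 TPM in replicate 1, a log2 ratio of -2.52 (interval -2.68 to -2.36). Castor1, the arginine sensor upstream of mTORC1, had 2.11 TPM in replicate 2 and 4.12 TPM in replicate 1 (-1.13, interval -1.50 to -0.77). The other 23 mTORC1 genes were between -0.38 (Ddit4l, 98.5 TPM in replicate 2 and 115 TPM in replicate 1) and 0.18 (Sesn3). The median over the 101 genes was -0.12 and 84 of them lay below the all-gene median, so they were shifted as the members were.

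Within these lists the 18 lysosomal hydrolase and content genes ran from Ctsf (-0.49, 14.4 TPM in replicate 2 and 19.4 TPM in replicate 1) and Mcoln1 (-0.30) to Cd63 (0.17) and Ctsz (0.28). Their highest levels were Psap, the saposin precursor, with 204 TPM in replicate 2 and 222 TPM in replicate 1, and Ctsd, cathepsin D, with 131 TPM in replicate 2 and 134.5 TPM in replicate 1. The 15 proton pump genes stayed between -0.35 (Atp6v0b) and 0.02 (Atp6ap2), led by Atp6v1g1 at 127 TPM in replicate 2 and 117 TPM in replicate 1. The 15 fusion genes ran from -0.37 (Plekhm1 and Tecpr1) to 0.04 (Tecpr2), with Rab7, the GTPase of late endosomes, highest at 102 TPM in replicate 2 and 101 TPM in replicate 1. The 14 other receptors and mitophagy genes ran from -0.43 (Calcoco1) to 0.06 (Fundc1), with Nipsnap2, a mitochondrial protein, highest at 229 TPM in replicate 2 and 262 TPM in replicate 1. The 9 other kinase subunits ran from -0.29 (Rb1cc1) to 0.14 (Rubcn), and the 5 tested membrane supply genes from -0.38 (Wdr45) to -0.01 (Wdr45b).

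Lists of fasting and atrophy genes, whose difference between these libraries was known when they were chosen, are given only as a scale. FoxO factors induce several autophagy genes in muscle, and 5 of 10 genes in a list of FoxO factors and atrophy ligases were lower, Foxo1 (-0.80), Foxo3 (-0.60), Trim63 (-0.80), Fbxo32 (-1.77) and Fbxo21 (-0.61), and 0 higher. Fbxo32 (atrogin-1), a ubiquitin ligase of wasting muscle, had 8.00 TPM in replicate 2 and 24.4 TPM in replicate 1. Of 16 glucocorticoid and fasting responsive genes, 13 were lower and 0 higher. Of all tested genes, 5.65% were lower and 7.85% higher at the same limit. Pdk4, which restrains pyruvate oxidation in fasting, had 154 TPM in replicate 2 and 641 TPM in replicate 1 (-2.19), Fkbp5, a direct target of the glucocorticoid receptor, had 4.49 TPM in replicate 2 and 20.9 TPM in replicate 1 (-2.22), and Mt2, a metallothionein, had 9.84 TPM in replicate 2 and 50.8 TPM in replicate 1 (-2.51). The median log2 ratio was -0.52 for the first list and -1.23 for the second, against -0.16 for the autophagy genes. Of the first list 9 of 10 genes lay below the all-gene median, and of the second 15 of 16, so not every gene was lower. Any relation between these lists was not tested.

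**Figure D5:**
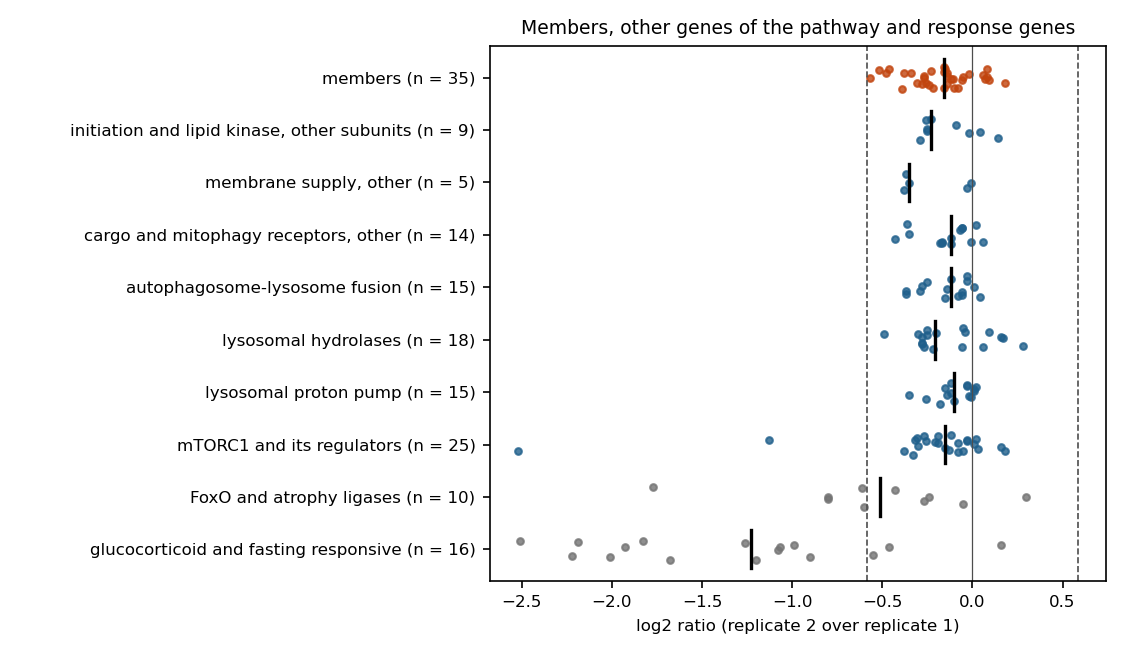
Log2 ratios (replicate 2 over replicate 1) of the members, the 7 lists of other pathway genes and the 2 lists of response genes; each point is a tested gene, the bar is the list's median and dashed lines are 1.5-fold. The members and pathway lists lie mostly within the lines, with Ddit4 and Castor1 outside, and the response genes extend to -2.51.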

How the data were processed

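Reads were not used. Per the file headers and the notes beside them, the authors deposited for each library gene and transcript tables made from transcriptome alignments and a further transcript table made directly from reads, on mm10 with GENCODE M21. Aligner, quantifier and interval level were not given in the sources used here. Deposited expected counts divide a read among the features it fits; the deposited TPM is scaled over all listed features, spike-ins included; the deposited isoform percent is a transcript's share of its gene. The deposited interval bounds and posterior standard deviations were used as signal values in TPM and in counts. The reference is that of C57BL/6J, so reads of CAST/EiJ alleles may be lost, which was not measured.

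All 55536 gene IDs matched M21. A further 26249 rows named by no gene held 0 counts in replicate 2 and 2 in replicate 1 and were left out. ERCC spike-ins held 317175 counts in replicate 2 and 285877 in replicate 1, from 300 ng of RNA each. Expected counts were rounded to whole numbers and scaled with TMM in edgeR 4.0.16 (R 4.3.3; factors 1.05 in replicate 2 and 0.957 in replicate 1); edgeR's quasi-likelihood fit of 1 library against 1 leaves no residual degrees of freedom. Log2 ratios used a prior count of 0.5 over genes with a summed count of at least 20, and their intervals were exact binomial at 95% (scipy 1.17.1). The calculation was tested on simulated counts. A gene listed at 0 allows up to 3 counts, for counting error only.

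Alternatives were DESeq2 1.42.0 size factors, total counts, spike-in counts, other count minimums, the direct quantification, posterior mean TPM, a TPM ratio with a pseudocount of 0.1, coding genes only, other folds and leaving out a library. The members and gene lists were chosen with earlier results of these data known. All members are named, and of each other list the called genes, by count where many. Of the pathway lists, up to 2 genes of largest ratio each way and up to 2 of highest TPM are also named. In the 2 lists of response genes no uncalled gene is named, and further names followed from the roles. The values of 1 gene of these lists are not reported here. Sequences come from GENCODE M21 transcripts and RefSeq promoters.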

Additional observations from a re-analysis of the deposited data

How the results depend on the processing

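The scalings, count minimums and gene-level tables tried called 0 members at 1.5-fold or 2-fold. The exception was counting only coding transcripts, a setting chosen after seeing the data. It called 1 member higher (Becn1) and 1 lower (Ulk1), and the share of all genes called that way was not computed. A limit of 1.3-fold, also chosen then, called 6 members and 6 pathway genes lower. A minimum of 500 counts left 1 pathway gene lower in place of 2. The members' median log2 ratio of -0.16 became -0.03 with total counts, 0.06 with spike-in counts and -0.05 as a TPM ratio, as the median of all genes rose with it. The median member level of 14.9 TPM became 27.6 TPM in the direct quantification and 30.6 TPM over nuclear protein-coding genes alone, and lay between 14.6 and 16.2 TPM when 1 library was left out; the summed level of 1096 TPM became 1537 and 2247 TPM, and lay between 1076 and 1116 TPM. These follow from the smaller set of features sharing the scale in the second case; in the direct quantification the cause was not tested. The mean log2 ratio of Map1lc3a over Map1lc3b was 0.52 and reversed to -0.18 in the direct quantification. Of 18 pairs, 13 had separated intervals, also by posterior mean, and 13 to 15 when 1 library was left out; 12 of those 13 kept their order in the direct quantification. No paired analysis was possible because the series holds 1 group. Counts limit precision in low members: Atg10, with the lowest summed count of 435, has an interval from -0.56 to -0.01.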

Other observations

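In these libraries the 5 ATG8 genes together had 261 TPM in replicate 2 and 264.5 TPM in replicate 1. The 6 genes of the conjugation machinery had 38.1 and 35.2 TPM, so the summed ATG8 level was above theirs in each library. The ATG8 sum includes transcripts not of coding type, as the mean coding share was 38.6% for Map1lc3a and 40.9% for Gabarapl2 in the gene tables. Gabarap (log2 ratio 0.08) went against Map1lc3b (-0.38) and Gabarapl1 (-0.39), with intervals that did not overlap, and its share of the family was 33.6% in replicate 2 and 27.3% in replicate 1. Becn1 coding transcripts had 233 counts in replicate 2 and 85 in replicate 1, a log2 ratio of 1.08, whereas the whole gene had -0.08; in the direct quantification the coding share of Becn1 was 23.1% in replicate 2 and 24.0% in replicate 1, and the difference between the tables was not tested further.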
